A study of Saccharomyces cerevisiae with 40 samples.

Results

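The genes described here are those that carry a hexose to ethanol in *Saccharomyces cerevisiae*, from hexose phosphorylation through glycolysis to the alcohol dehydrogenases, together with the transcription factors *GCR1* and *GCR2*. They were taken by name from the deposited expression table. Of 32 listed genes, 28 had a row among the 4388 features of the table, and *PFK26*, *PFK27*, *FBP26* and *GPM2* were not analysed here. The study crossed the laboratory strain S288C, the source of the yeast reference genome, with 59A, a haploid strain derived from EC1118, a commercial wine yeast. RNA was taken from S288C (5 cultures), from 59A (5 cultures) and from 30 haploid segregants of the cross (1 culture each), which stem from 21 asci if the number in a segregant's name is its ascus. The labels name no transgene and no added agent. Every culture fermented the synthetic grape must MS300 at 28 °C and was sampled at 45 g of released CO2, when 50% of the sugar had been used. Each parent is a single genotype, so its 5 cultures measure the spread between fermentations and not between strains of its kind. The labels give S288C as MATa and the study's methods as MATα. The a-specific genes *MFA1*, *MFA2* and *STE2* were the 3 of 8 mating type genes that differed between the parents at an adjusted p under 0.01, all higher in 59A.

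In glycolysis a hexose is phosphorylated, split into triose phosphates and oxidised to pyruvate, with a net gain of ATP. Yeast in must then removes CO2 from pyruvate and reduces the remaining acetaldehyde to ethanol, which returns the oxidised cofactor that glyceraldehyde phosphate dehydrogenase needs. Most steps have several isoenzymes. Some, such as *HXK2*, *ENO2* and *ADH1*, are known as genes of growth on glucose, and others, such as *HXK1*, *GLK1*, *PYK2* and *ADH2*, as genes that glucose represses. The transcription factors Gcr1 and Gcr2 act together as activators of glycolytic genes.

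Each value is a deposited log2 ratio of a sample (Cy3) to a pool of RNA of the 30 segregants (Cy5), with no dye swap. Which channel is the numerator cannot be read from the dyes. The ratio was taken as sample over pool from the asparaginase genes, which are described as deleted in 59A. *ASP3-1* read 0.46 to 0.67 in S288C and -0.73 to -0.52 in 59A. A deleted gene thus still read at only -0.59 in the median of 59A. Arrays of one strain correlated at 0.82 to 0.96 over all features and arrays of the different parents at 0.39 to 0.59. Segregant arrays correlated with each other at -0.44 to 0.86. The table spans -2.32 to 2.09 on every array, and the array medians lie between -0.026 and 0.028. A gene's ratio carries an offset from the pool that the segregants share. The mean of the 30 segregants was -0.60 for *PGI1*, -0.95 for *GCR1* and 0.62 for *SFA1*, and 5.95% of all features had a segregant mean over 0.5 in size. Levels are therefore compared between samples for the same gene and not between genes. A ratio describes a gene's share of the RNA on the array, so less RNA of a gene per cell and more RNA of other genes cannot be told apart.

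The comparison of the parents asks which steps of the pathway differ between a laboratory and a wine yeast in mid-fermentation. Of the 28 genes, 19 were higher in 59A and 0 higher in S288C (limma, adjusted p under 0.01 over all features). Only *GPM3* lay above 0, by 0.03 (exact permutation p = 0.52), so no gene was higher in S288C at an unadjusted p under 0.05 either, by limma or the exact permutation test. Over all 4388 features, 17.1% were higher in 59A and 13.7% higher in S288C by the same rule. The difference S288C minus 59A was below 0 for 27 of the 28 genes, against 51.8% of all features, and its median was -0.49 over the genes and -0.012 over all features. The 5 values of S288C and the 5 of 59A did not overlap for 20 of the 28 genes, of which 19 were the genes called, and 33.5% of all features had no overlap. For each of the 20 the exact permutation p is 0.0079, the smallest that 5 against 5 cultures allow. Fold differences were mostly below 2. Of the 28 genes, 2 passed a ratio of 2, and of all 4388 features 141 were called at a fold over 2 in either direction. A ratio of 1.5 was passed by 6 of the called genes, and its share of all features is not given here.

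**Figure D1:**
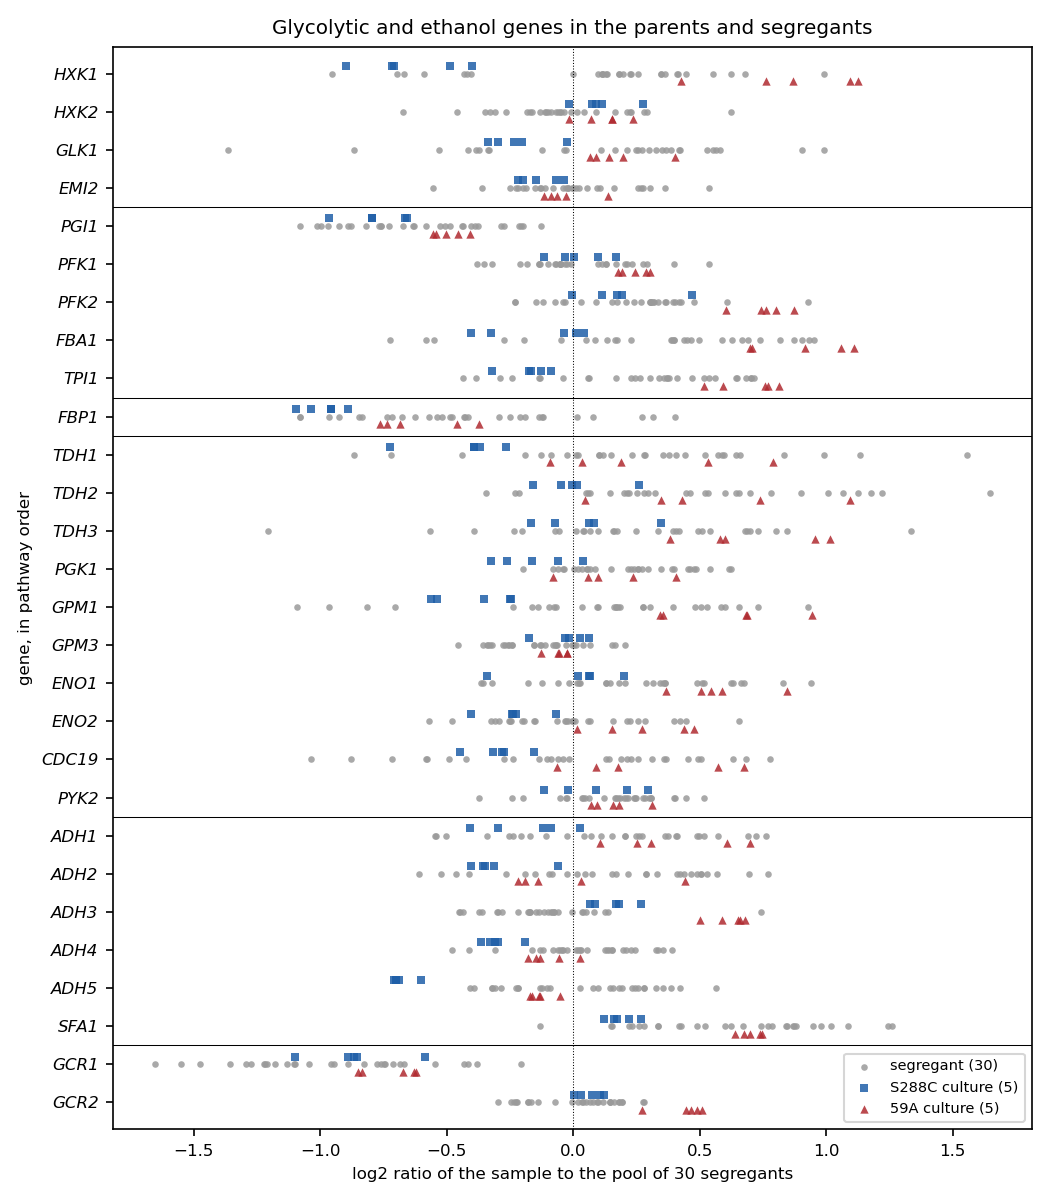
Log2 ratio to the pool (horizontal axis) for 28 genes in pathway order (vertical axis), with a square for each S288C culture, a triangle for each 59A culture and a grey point for each segregant. Horizontal lines part the steps. The 5 triangles lie to the right of the 5 squares without overlap for 20 genes, most widely for *HXK1*, while *HXK2*, *GPM3* and *PYK2* overlap.

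The gene of widest difference, *HXK1*, belongs to hexose phosphorylation. The step as a whole did not differ most, with a median difference of -0.25. That median was -0.57 in upper glycolysis, -0.54 in lower glycolysis and -0.49 in the alcohol dehydrogenases. *HXK1* encodes hexokinase 1, a hexokinase known to be repressed by glucose. In S288C its 5 cultures read -0.49, -0.40, -0.72, -0.71 and -0.90, and in 59A they read 0.76, 1.09, 0.42, 0.87 and 1.12. Every 59A culture lay above every S288C culture, and the level was 2.82-fold higher in 59A (difference -1.50, SE 0.13, limma adjusted p = 1.3e-06). The segregants ran from -0.95 in segregant 28b through a median of 0.18 to 0.99 in segregant 1b. *GLK1*, the glucokinase gene, read -0.34, -0.024, -0.30, -0.23 and -0.20 in S288C and 0.20, 0.065, 0.14, 0.090 and 0.40 in 59A. The groups did not overlap, although S288C culture 2 came close to the lowest of 59A, and the level was 1.32-fold higher in 59A (difference -0.40, SE 0.076, limma adjusted p = 9.7e-04).

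*HXK2* encodes hexokinase 2, the main hexokinase on glucose and a regulator of glucose repression. Its cultures spanned -0.016 to 0.28 in S288C and -0.018 to 0.24 in 59A, with a difference of -0.013 (95% confidence interval -0.15 to 0.13, limma adjusted p = 0.89). Leaving out S288C culture 4 turned the sign, to 0.018, and so did leaving out 59A culture 5, to 0.017. *EMI2*, a close relative of *GLK1*, spanned -0.22 to -0.038 in S288C and -0.11 to 0.14 in 59A and was not called (difference -0.10, limma adjusted p = 0.19). Thus 2 of the 4 genes of this step were higher in 59A.

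In the upper part of glycolysis, 4 of 5 genes were higher in 59A. *FBA1* encodes aldolase, which splits fructose bisphosphate into triose phosphates. It read 0.011, 0.041, -0.035, -0.40 and -0.33 in S288C against 1.11, 0.91, 0.71, 0.70 and 1.06 in 59A. The cultures stood well apart, by 2.06-fold (difference -1.04, SE 0.11, limma adjusted p = 6.7e-06). *TPI1* encodes triose phosphate isomerase, which interconverts the products of aldolase. Its S288C cultures read -0.087, -0.18, -0.17, -0.32 and -0.13, and its 59A cultures 0.77, 0.76, 0.59, 0.52 and 0.81. It had the lowest adjusted p of the 28 genes, 5.0e-07 by limma, at a difference of -0.87 (SE 0.068), or 1.82-fold.

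The subunits of phosphofructokinase, which commits the hexose to glycolysis, differed in size of change. *PFK2*, the beta subunit, read 0.47, 0.11, 0.17, -0.0037 and 0.19 in S288C and 0.74, 0.87, 0.76, 0.60 and 0.80 in 59A. No S288C culture reached the lowest 59A culture, and the difference was -0.57 (SE 0.082, 1.48-fold, limma adjusted p = 1.1e-04). *PFK1*, the alpha subunit, spanned -0.12 to 0.17 in S288C and 0.18 to 0.30 in 59A. Its values did not overlap, but at a difference of -0.22 it missed the threshold (limma adjusted p = 0.0103). *PGI1*, the gene of phosphoglucose isomerase, was below the pool in both parents, at -0.97 to -0.66 in S288C and -0.55 to -0.41 in 59A (difference -0.28, limma adjusted p = 0.0030). *FBP1*, whose product runs the aldolase substrate back to fructose monophosphate in gluconeogenesis, spanned -1.10 to -0.89 in S288C and -0.77 to -0.37 in 59A. It was higher in 59A like its glycolytic counterparts, by 1.30-fold (difference -0.38, limma adjusted p = 0.0018).

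**Figure D2:**
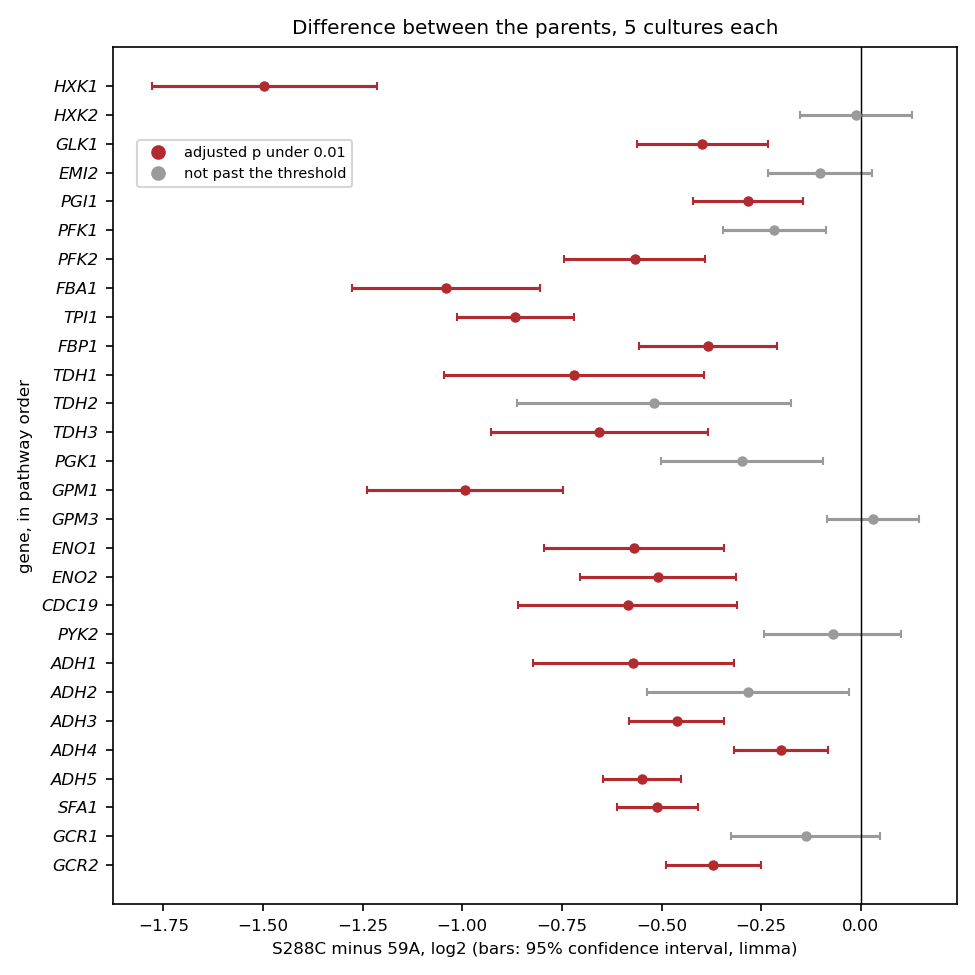
Difference S288C minus 59A on the log2 scale (horizontal axis) for 28 genes in pathway order (vertical axis), each point a limma estimate from 5 cultures a strain with its 95% confidence interval. The 19 red points passed an adjusted p of 0.01 and all lie below 0; *HXK1* lies farthest out at -1.50, and of the 9 grey points only *GPM3* lies above 0.

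In the lower part of glycolysis, 6 of the 10 measured genes were higher in 59A. *GPM1*, the gene of phosphoglycerate mutase, differed most. Its S288C cultures read -0.25, -0.25, -0.35, -0.54 and -0.56 and its 59A cultures 0.94, 0.68, 0.35, 0.34 and 0.69. The strains were fully separated, by 1.99-fold (difference -0.99, SE 0.11, limma adjusted p = 1.5e-05). *GPM3* resembles *GPM1* in sequence and is not known to act in glycolysis. It spanned -0.18 to 0.061 in S288C and -0.13 to -0.024 in 59A, which overlap (limma adjusted p = 0.67).

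The 3 genes of glyceraldehyde phosphate dehydrogenase all lay lower in S288C, with wide spread among the 59A cultures. *TDH3*, which makes most of the enzyme, spanned -0.17 to 0.34 in S288C and 0.38 to 1.01 in 59A (difference -0.66, SE 0.13, limma adjusted p = 9.9e-04). *TDH1* spanned -0.72 to -0.27 in S288C and -0.091 to 0.79 in 59A, a difference of -0.72 (SE 0.15) at a limma adjusted p of 0.0019. The difference of *TDH2*, -0.52, was smaller than that of its sister genes and did not pass (limma adjusted p = 0.018), since its 59A cultures ran from 0.047 to 1.09 and overlapped S288C, which ran from -0.16 to 0.26. Without 59A culture 4 it passed, at a limma adjusted p of 0.0035. *PGK1*, the phosphoglycerate kinase gene, was likewise not called at a difference of -0.30 (limma adjusted p = 0.020) and passed without 59A culture 4 (limma adjusted p = 0.0093).

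*ENO1* and *ENO2* encode the enolases. *ENO1* read 0.20, 0.066, 0.062, -0.34 and 0.020 in S288C and 0.85, 0.59, 0.54, 0.37 and 0.51 in 59A. *ENO2* read -0.23, -0.070, -0.24, -0.24 and -0.41 in S288C and 0.44, 0.27, 0.016, 0.15 and 0.48 in 59A. Neither gene overlapped between the parents, and their differences were alike in size, -0.57 (SE 0.10) for *ENO1* and -0.51 (SE 0.090) for *ENO2* (limma adjusted p = 7.3e-04 and 5.7e-04). *CDC19* encodes the main pyruvate kinase, which makes pyruvate and ATP. It spanned -0.45 to -0.15 in S288C and -0.066 to 0.67 in 59A, 1.50-fold higher in 59A (difference -0.58, limma adjusted p = 0.0024). *PYK2*, the minor pyruvate kinase gene, spanned -0.12 to 0.29 and 0.070 to 0.31, which overlap (difference -0.070, limma adjusted p = 0.50).

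Of the 6 alcohol dehydrogenase genes, 5 were higher in 59A. *ADH1*, the gene of the enzyme that forms most of the ethanol, read -0.12, 0.026, -0.088, -0.41 and -0.30 in S288C and 0.61, 0.10, 0.25, 0.31 and 0.70 in 59A. The difference was -0.57 (SE 0.12, limma adjusted p = 0.0015). *ADH2*, whose enzyme is known for the oxidation of ethanol, overlapped, at -0.40 to -0.060 in S288C and -0.22 to 0.44 in 59A (difference -0.28, limma adjusted p = 0.066). *ADH3*, the mitochondrial form, read 0.17, 0.084, 0.18, 0.27 and 0.065 in S288C and 0.59, 0.50, 0.66, 0.68 and 0.65 in 59A, a difference of -0.46 (SE 0.055) at a limma adjusted p of 2.3e-05. *ADH4*, which has no sequence relation to *ADH1*, was called by the narrowest margin of the 19 genes (difference -0.20, limma adjusted p = 0.0095) and was lost in 8 of the 10 fits that left out 1 culture.

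The minor genes *ADH5* and *SFA1* differed as much as *ADH1* but with far less spread between cultures. *ADH5* read -0.71, -0.60, -0.69, -0.70 and -0.70 in S288C and -0.17, -0.14, -0.17, -0.13 and -0.055 in 59A. *SFA1*, whose product also oxidises formaldehyde bound to glutathione, read 0.16, 0.27, 0.12, 0.22 and 0.17 in S288C and 0.75, 0.74, 0.70, 0.68 and 0.64 in 59A. The parents stood apart by several times the spread in both genes, at -0.55 (SE 0.045, limma adjusted p = 7.8e-07) for *ADH5* and -0.51 (SE 0.047, limma adjusted p = 2.0e-06) for *SFA1*. Among the activators, *GCR2* read 0.12, 0.030, 0.075, 0.00083 and 0.10 in S288C and 0.46, 0.27, 0.49, 0.51 and 0.45 in 59A. It was 1.29-fold higher in 59A (difference -0.37, SE 0.055, limma adjusted p = 1.4e-04). *GCR1* spanned -1.10 to -0.59 in S288C and -0.85 to -0.62 in 59A, with overlap (difference -0.14, limma adjusted p = 0.21).

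The cultures of a parent also differed from each other across the pathway. The median over the 28 genes was -0.12, -0.069, -0.17, -0.25 and -0.18 in the S288C cultures and 0.45, 0.18, 0.16, 0.080 and 0.46 in the 59A cultures. The 59A cultures 1 and 5 were thus highest and culture 4 lowest, and all 5 lay above the highest S288C culture. When the residual spread was taken from all 40 arrays, which adds the differences between segregants to it, *HXK1*, *PFK2*, *FBA1* and *TPI1* were the 4 genes still called. Calls fell over the whole table in that fit, to 265 of 4388 features. The p-values from the parental arrays alone measure the spread between cultures of a strain.

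Isoenzymes of one step were compared within each array, as the difference between the log2 ratios of a pair of genes, so that the pool and the array were shared. Of 23 listed pairs, 19 were measured, and for 10 the difference changed between the parents (exact permutation test over all groupings of the 10 arrays, two-sided, Benjamini-Hochberg over the 19 pairs, adjusted p under 0.05). At an unadjusted p under 0.05 there were 11 pairs. *HXK1* minus *HXK2* was -0.75 ± 0.15 in S288C and 0.74 ± 0.25 in 59A (SD, n = 5, exact permutation p = 0.0079, adjusted p = 0.019). The balance between these hexokinases lay towards *HXK1* in 59A, with S288C minus 59A at -1.48 (95% confidence interval -1.78 to -1.18). The same difference was -1.10 (-1.45 to -0.75) for *HXK1* minus *GLK1* and -1.39 (-1.72 to -1.07) for *HXK1* minus *EMI2*. *GLK1* was also higher in 59A relative to *HXK2* and to *EMI2*, with S288C minus 59A at 0.39 for *HXK2* minus *GLK1* and -0.30 for *GLK1* minus *EMI2*. The exact permutation p was 0.0079 and the adjusted p 0.019 for each of these 5 pairs (n = 5 a strain). *HXK2* minus *EMI2* changed by 0.089 (-0.066 to 0.24) and was not called.

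The other pairs called lie downstream of hexose phosphorylation. *GPM1* minus *GPM3* was -0.36 ± 0.21 in S288C and 0.66 ± 0.24 in 59A, and *CDC19* minus *PYK2* was -0.39 ± 0.24 and 0.13 ± 0.25 (SD, n = 5, exact permutation p = 0.0079 and adjusted p = 0.019 for both). *PFK1* minus *PFK2* was -0.16 ± 0.11 and -0.52 ± 0.087 (SD, n = 5, exact permutation p = 0.0079, adjusted p = 0.019), so the subunits of phosphofructokinase did not differ by the same amount between the strains. *ADH1* minus *ADH2* was 0.12 ± 0.11 and 0.41 ± 0.15 (SD, n = 5, exact permutation p = 0.024, adjusted p = 0.045), and *ADH1* minus *ADH4* was 0.12 ± 0.22 and 0.49 ± 0.23 (SD, n = 5, exact permutation p = 0.016, adjusted p = 0.034). Both of these calls were lost when single cultures were left out, *ADH1* minus *ADH2* in 9 of 10 cases and *ADH1* minus *ADH4* in 8 of 10.

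Within the enolase genes and within the *TDH* genes no change of balance was called. *ENO1* minus *ENO2* changed by -0.060 (95% confidence interval -0.36 to 0.24), *TDH2* minus *TDH3* by 0.14 (-0.21 to 0.48) and *TDH1* minus *TDH3* by -0.063 (-0.45 to 0.32). *ADH1* and *ADH5* also differed by like amounts between the strains, with a change of -0.023 (-0.30 to 0.26). These intervals leave room for changes of up to about the size called in other pairs. The genes *TDH1*, *TDH2* and *TDH3*, *ENO1* and *ENO2*, and *ADH1* and *ADH2* are close in sequence, and how much of one gene's RNA binds the oligonucleotide of another was not tested.

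**Figure D3:**
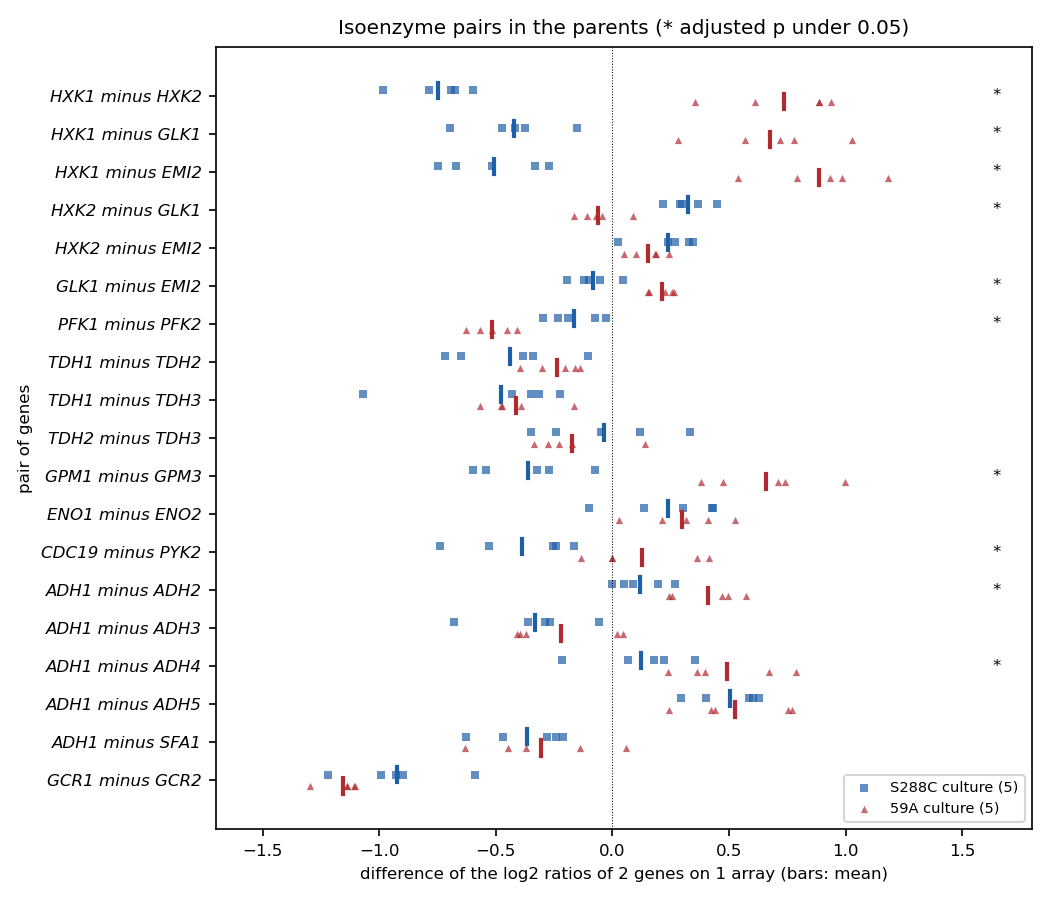
Difference between the log2 ratios of a pair of genes on the same array (horizontal axis) for 19 pairs (vertical axis), with a square for each S288C culture, a triangle for each 59A culture and a bar at each mean. Asterisks mark the 10 pairs with an adjusted p under 0.05; *HXK1* minus *HXK2* moves from -0.75 in S288C to 0.74 in 59A.

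The levels of the segregants were set against the span of the parental cultures. For *HXK1*, 29 of the 30 segregants lay within the span of the parental cultures, 6 of them in the range of S288C and 5 in that of 59A. For *FBA1*, *TPI1*, *ENO1* and *ENO2* 27, 28, 27 and 27 segregants lay within it. In the complete tetrad, the spores 16a, 16b, 16c and 16d, *HXK1* read 0.18, 0.23, -0.67 and 0.099, so 1 spore of 4 was in the range of S288C and none in that of 59A. Over the 28 genes the median number of segregants outside the parental span was 9, against 17 over all features. The variance among segregants was 5.34 times the variance between cultures of a parent in the median of the genes (range 1.81 for *PGK1* to 47.9 for *SFA1*) and 7.26 times in the median of all features. These counts and ratios are descriptions with no test.

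Some genes of the pathway ran beyond both parents. *SFA1* ran from -0.13 in segregant 20a through a median of 0.65 to 1.26 in segregant 31b, with 13 segregants above and 1 below both parents. *GLK1* ran from -1.36 in segregant 18c to 0.99 in segregant 18b, spores that by name come from the same ascus, with 7 segregants below and 8 above. *ADH5* had 17 segregants above 59A and none as low as the highest S288C culture at -0.60, since its lowest segregant, 20b, read -0.41. *ADH3* had 26 segregants below S288C and 1 above 59A, at a segregant median of -0.12. *HXK2*, which did not differ between the parents, ran from -0.67 in segregant 24a to 0.62 in segregant 28b, with 19 segregants below and 3 above.

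The mean of the segregants was set against the mean of the parents, the midparent, which a gene with additive inheritance would match. Of the 28 genes, 2 were higher in the segregants and 2 higher in the parents (limma on 40 arrays, adjusted p under 0.01), against 12% and 16.2% of all features. *ADH5* (midparent -0.41, segregant mean 0.035, limma adjusted p = 1.2e-04) and *ADH4* (-0.20 and 0.040, limma adjusted p = 0.0072) were higher in the segregants. *ADH3* (0.38 and -0.12, limma adjusted p = 1.8e-06) and *GCR2* (0.25 and 0.017, limma adjusted p = 0.0020) were higher in the parents. The call of *ADH4* was lost when any of 8 of the 10 parental cultures was left out, at limma adjusted p of 0.011 to 0.016. The 16 measured genes from *PGI1* to *PYK2* held no call over all 30 segregants, but with the first spore of each ascus alone *PGK1* was called, higher in the segregants. Parental and segregant arrays differ in kind of sample, and a difference between the times or sets of hybridisation cannot be told apart from it.

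Fermentation rates (g CO2 per l and h) were deposited as 1 value per strain. Rmax is the highest rate, and R50 and R70 are the rates when 50% and 70% of the sugar is used. In this order the parental means as deposited, with no SD, were 1.63, 1.04 and 0.81 in S288C and 2.94, 2.33 and 1.49 in 59A. The segregants ran from 1.22 to 2.96 for Rmax (median 2.11), from 0.865 to 2.68 for R50 (median 1.62) and from 0.67 to 2.08 for R70 (median 1.36). The relation of each gene to each rate was computed over the 30 segregants, with p-values adjusted over all 4388 features for each rate. A gene was called where Spearman's rho passed 0.6 in size at an adjusted p under 0.05. By this rule 0 of the 28 genes were called for Rmax, R50 or R70, against 1.44%, 1.41% and 2.32% of all features. Pearson's r by the same rule also called 0 genes for each rate.

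At an unadjusted p under 0.05, rho was positive for 1 gene and negative for 1 with Rmax, positive for 7 and negative for 0 with R50, and positive for 8 and negative for 0 with R70. Of all features at that p, 8.02% were positive and 12.3% negative with Rmax, 7.61% and 7.16% with R50, and 9.43% and 9.21% with R70. The median rho of the 28 genes was 0.078 for Rmax, 0.15 for R50 and 0.14 for R70, beside -0.026, -0.028 and -0.011 over all features. The genes with a positive rho at that p for both R50 and R70 were *PFK2*, *TPI1*, *TDH1*, *ENO1*, *ENO2* and *GCR2*. Of these rates *GLK1* was counted for R50 alone, and *HXK2* and *GPM1* for R70 alone. These shares stand on genes that vary together, as described below, and are not independent of each other.

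*ENO1* and *GCR2* passed an adjusted p of 0.05 for R70 without reaching a rho of 0.6. *ENO1* ran from -0.37 in segregant 25a to 0.94 in segregant 31b. Its rho with R70 was 0.56 (permutation p = 0.00165, adjusted p = 0.034), and Pearson's r was 0.47 (permutation p = 0.0097, adjusted p = 0.15) and 0.47 again without the 2 segregants of most extreme R70. *GCR2* ran from -0.30 in segregant 19b to 0.28 in segregant 22a. Its rho with R70 was 0.57 (permutation p = 0.0011, adjusted p = 0.027), and r was 0.59 (permutation p = 7.0e-04, adjusted p = 0.027) and 0.67 without the 2 extremes. Without these 2, segregants 4c and 1b, *GCR2* reached a rho of 0.66 and was called for R70 (adjusted p = 0.011). *ENO2* had the largest rho with R50, 0.55 (permutation p = 0.0019, adjusted p = 0.054), where r was 0.44 (permutation p = 0.015, adjusted p = 0.24) and 0.55 without the 2 extremes. It also had the largest with Rmax, 0.41 (permutation p = 0.024, adjusted p = 0.16), where r was 0.38 (permutation p = 0.038, adjusted p = 0.22) and 0.27 without the 2 extremes. Without segregants 14b and 4c, the most extreme for R50, its rho with R50 was 0.69 (adjusted p = 0.013). *GPM3* was the gene of negative rho with Rmax, at -0.39 (permutation p = 0.034, adjusted p = 0.19), where r was -0.42 (permutation p = 0.020, adjusted p = 0.17) and -0.38 without the 2 extremes.

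Assimilated nitrogen, deposited for the same segregants, changed these calls when it was held constant. The share of all features called by this partial rule is not given here, so the change cannot be read as particular to these genes. In a partial rank correlation, *ENO1* reached 0.68 with R50 and 0.68 with R70, *GCR2* 0.64 with R50 and 0.65 with R70, and *HXK2* 0.74 with R70 (adjusted p = 0.0060, 0.0023, 0.0095, 0.0037 and 6.0e-04). For *GPM3* and Rmax the partial rho was 0.097, on the other side of 0. The segregants were also split at gaps found in these data, a choice made after seeing them. The genes split were already named for their rho in the same segregants. The p-values of the splits are therefore descriptions and not separate support. The values of R70 leave a gap from 1.54 to 1.77, with 21 segregants below and 9 above it. Among the 21, rho with R70 was 0.71 for *ENO1*, 0.59 for *GCR2* and 0.52 for *HXK2* (permutation p = 5.5e-04, 0.0061 and 0.019). Among the 9 it was -0.14, -0.23 and 0.44 (permutation p = 0.72, 0.54 and 0.24). A split on R70 narrows its range, to 1.77 to 2.08 in the 9, which by itself can lower rho. The sides therefore cannot show whether the relation differs between slow and fast segregants. *GCR2* itself leaves a gap from -0.14 to -0.072, and its rho with R70 was 0.45 in the 9 segregants below and 0.13 in the 21 above (permutation p = 0.23 and 0.58).

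**Figure D4:**
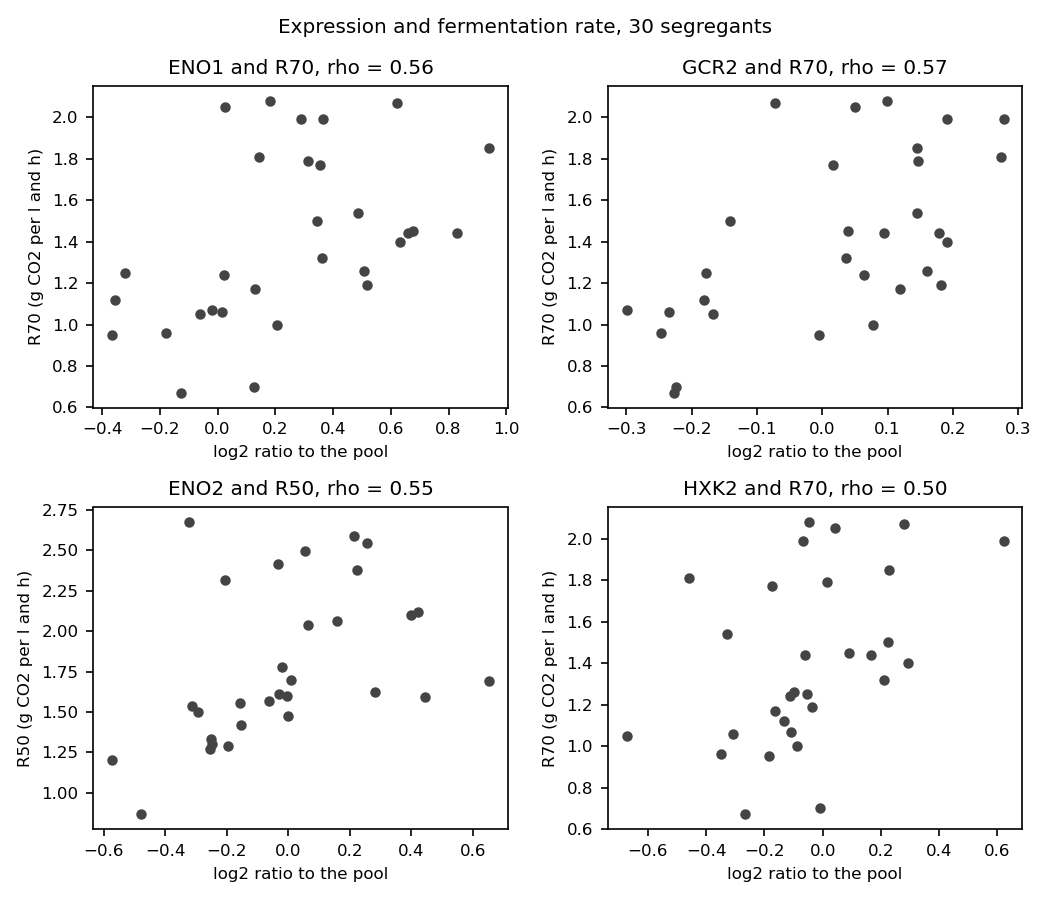
Fermentation rate (vertical axes, g CO2 per l and h) against the log2 ratio to the pool (horizontal axes), with a point for each of 30 segregants, for *ENO1*, *GCR2* and *HXK2* with R70 and *ENO2* with R50. Spearman's rho is 0.56, 0.57, 0.50 and 0.55, and the 9 segregants of highest R70 lie above a gap from 1.54 to 1.77.

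The genes of largest parental difference lay at different distances from the rates. *HXK1* had a rho of 0.30 with Rmax, 0.24 with R50 and 0.22 with R70, and *FBA1* had 0.083, 0.15 and 0.094. *GPM1* had 0.15, 0.35 and 0.41, *TPI1* had 0.23, 0.44 and 0.46, and *TDH1* had 0.12, 0.37 and 0.42. *ADH1*, *ADH2*, *ADH3*, *ADH5* and *SFA1* lay between -0.21 and 0.079 for every rate. *ADH4* had 0.35 with Rmax (permutation p = 0.056, adjusted p = 0.26), 0.14 with R50 and 0.010 with R70. Its r with Rmax was 0.39 (permutation p = 0.032, adjusted p = 0.21) and 0.44 without the 2 extremes, and its partial rho given assimilated nitrogen was -0.18. *HXK2*, level between the parents, had -0.14 with Rmax and 0.50 with R70 (permutation p = 0.0053, adjusted p = 0.079), where r was 0.43 (permutation p = 0.016, adjusted p = 0.20) and 0.41 without the 2 extremes.

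Over the segregants, the 45 pairs among the 10 measured genes of lower glycolysis had a median rho of 0.45 (range -0.27 to 0.94). *PYK2* was lowest in this list, at -0.27 with *ENO1*, and *GPM3* had -0.12 with *ENO2*. The 378 pairs of all 28 genes had a median of 0.16 (range -0.73 to 0.94), and pairs of all features with no missing value a median of -0.0073. These correlations share arrays, pool and asci and are given as descriptions. *FBP1* ran against some of the main genes, with a rho of -0.73 with *FBA1*, -0.65 with *ADH1* and -0.65 with *PGK1*. Between the parents it was higher in 59A, as *FBA1* and *ADH1* were. With other genes its rho was 0.41 (*PFK1*), 0.25 (*PGI1*) and -0.062 (*ENO2*), and its median with the other 27 genes was -0.25. *GCR1* had a rho of -0.54 with *GPM1*, -0.40 with *FBA1*, -0.34 with *ENO1* and -0.36 with *PFK2*. With the same genes *GCR2* had 0.42, 0.31, 0.61 and 0.55. Elsewhere *GCR1* had 0.44 with *FBP1* and 0.42 with *PYK2*, and *GCR2* had -0.33 with *ADH4*. Their median rho with the other 27 genes was -0.20 and 0.16. *PGI1*, *ADH5* and *SFA1* stood aside, with a median rho of 0.022, 0.030 and 0.023 with the other 27 genes.

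Among isoenzymes, 6 of the 19 pairs were related over the segregants, all positively (100000 permutations, adjusted over the pairs). They were *TDH2* and *TDH3* (rho = 0.94, r = 0.93), *ADH1* and *ADH2* (rho = 0.83, r = 0.85), *TDH1* and *TDH2* (rho = 0.82, r = 0.83), *TDH1* and *TDH3* (rho = 0.81, r = 0.83), *ENO1* and *ENO2* (rho = 0.68, r = 0.71), and *HXK1* and *GLK1* (rho = 0.53, r = 0.40). For the first 4 the permutation p for both rho and r is 1.0e-05, the smallest that 100000 permutations can give, with an adjusted p of 4.7e-05. For *HXK1* and *GLK1* the adjusted p was 0.0097 for rho and 0.088 for r, and r was 0.33 without the 2 segregants of most extreme *HXK1*. *HXK1* and *HXK2* had a rho of 0.026 (permutation p = 0.89), *PFK1* and *PFK2* of 0.068 (permutation p = 0.72) and *GPM1* and *GPM3* of 0.16 (permutation p = 0.40). The 5 pairs of strongest relation are all among the genes named above as close in sequence.

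**Figure D5:**
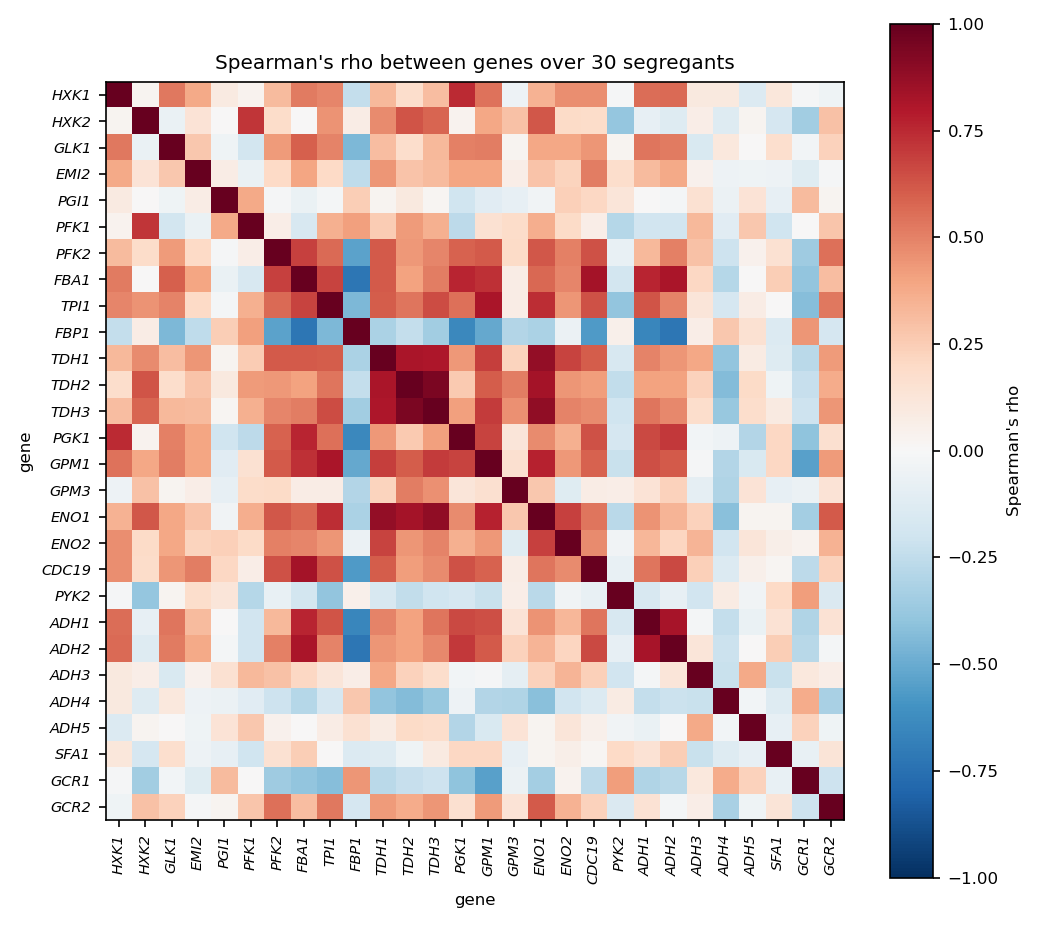
Spearman's rho over 30 segregants (colour, from -1 in blue to 1 in red) between each pair of 28 genes, in pathway order on both axes. Red squares prevail from *PFK2* to *CDC19*, apart from *FBP1* and *GPM3*, and for *ADH1* and *ADH2*. *FBP1* forms a line that is mostly blue, lowest at -0.73 with *FBA1*, but red with *PFK1* and *GCR1*.

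Genes of neighbouring pathways were called in either direction, and their lists were not tested against the glycolytic genes. The shares of all features, 17.1% higher in 59A and 13.7% higher in S288C, apply here too. Of 20 measured hexose transport and sensing genes, 3 were higher in 59A and 4 in S288C, with a median difference of -0.064. The pyruvate decarboxylase genes *PDC1*, *PDC5* and *PDC6*, which link pyruvate to the alcohol dehydrogenases, held no call in 3, and *PDC5* rose with R70 (rho = 0.68, adjusted p = 0.0028). Of 4 glycerol genes, which drain triose phosphate, *GPD1*, *GPP1* and *GPP2* were higher in S288C, by 0.21, 0.54 and 0.36 on the log2 scale. The pentose phosphate list had 2 genes of 11 higher in 59A and 0 in S288C, and trehalose and glycogen synthesis 4 of 11 and 1 of 11. Among 14 measured regulators of glucose repression and glycolysis, *MIG1* was higher in 59A and *REG1* in S288C. Of 9 measured glucose-repressed genes outside the pathway, 1 was higher in 59A and 0 in S288C, and 8 were not called. *PDC5* was not the only gene of these lists called with a rate. *HXT8*, *HXT13*, *GND2* and *CYC1* were called with R70 at a negative rho, of -0.67, -0.65, -0.80 and -0.65. With R50, *HXT8*, *GND2* and *CYC1* were called at -0.61, -0.69 and -0.61 and *SOL2* at 0.62.

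Of 8 listed stress genes, 7 were higher in S288C, among them the membrane protein gene *HSP12* at 0.66 to 1.17 in S288C and -0.79 to -0.36 in 59A. Over the segregants 5 of the 8 were called with R50 and 6 with R70, against 1.41% and 2.32% of all features. *HSP12* had a rho of -0.70 and -0.82. From these same data the study had already related *HSP12*, *HSP30*, *SPS100*, *CTT1*, *SSA4* and *DDR2* to R70. It had also named *HSP12*, *HSP30* and *SPS100* as overexpressed in the laboratory strain. The counts thus repeat known results of these data and are not separate support. The part of stress in the levels of the glycolytic genes was not tested.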

How the data were processed

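Log2 ratios were deposited by the authors as a single table. By the labels and the study's methods, 70-mer arrays were hybridised with sample RNA (Cy3) and a pool of the 30 segregants (Cy5), normalized by print-tip loess and quantiles in R 2.9.2 with limma, and averaged over 2 technical hybridisations. The log base is inferred from limma, and array dates are not given in the sources used here. The table holds 53 missing values, none in the genes described. Names were matched to RefSeq for 4104 of 4388 features. Culture volume and labelling kit differ between labels and methods. Rates were deposited as a table of 1 value per strain, with parental values taken from the labels.

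Parental differences came from lmFit and eBayes of limma 3.58.1 (R 4.3.3) on 5 against 5 arrays, with Benjamini-Hochberg adjustment over all features, and midparent and segregants in 1 fit of 40 arrays. Correlations and exact or permutation tests (two-sided) were computed in Python with numpy 2.4.6. Ranks and the t approximation across features came from scipy 1.17.1. Each method was tested on simulated data. Alternatives were the methods' t-test, a replicate block, other scalings, a robust prior, complete data, first spores, partial correlation and each parental culture left out. All 28 measured genes are accounted for, and those called, the largest rho and each pair called are given in full. The genes, lists and tests were chosen with earlier results of these data known. The planned search of promoters for motifs was not run because no promoter sequences were used here. The number of arrays limits the precision.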

Additional observations from a re-analysis of the deposited data

Results flagged for a closer look

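Among 56 groups of 5 cultures (28 genes in each parent), 4 held a culture that stood far from the other 4 of its group by Dixon's test at the 95% level. Chance alone marks about 1 group in 20. *TDH1* in S288C culture 1 read -0.72, below the others at -0.39 to -0.27. *ADH2* in S288C culture 2 read -0.060, above the others at -0.40 to -0.31. *ADH5* in S288C culture 2 read -0.60, above the others at -0.71 to -0.69. *GCR2* in 59A culture 2 read 0.27, below the others at 0.45 to 0.51. The parental calls of *TDH1*, *ADH5* and *GCR2* did not change when the culture concerned was left out.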

How the results depend on the processing

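Between the parents, 18 to 20 genes were higher in 59A when 1 culture was left out and 0 in S288C under every alternative. The methods' t-test gave 15 after adjustment (*TDH1*, *CDC19*, *ADH1* and *ADH4* lost), centred arrays 18, normal scores 20 and the fit of all 40 arrays 4. Of all 4388 features, these fits called 1181, 1361, 1376 and 265. Same-numbered cultures of the parents had correlated deviations in 2 of 5 pairs over 0.1 (range -0.29 to 0.39). Of 10 cultures, 3 correlated best with their own number. These few values cannot settle whether the numbers pair the cultures, and the main fit did not pair them. With the replicate block 20 genes were called, *ADH4* lost and *TDH2* and *PGK1* gained. The difference of *HXK2* ran from -0.055 to 0.018 and was above 0 in 2 leave-one-out fits (0.018 and 0.017). Between midparent and segregants, 1 to 2 genes were higher in the segregants and 2 in the parents with 1 culture left out, and 3 and 2 with the first spore of each ascus, which added *PGK1*. The count for R50 became 1 without the 2 most extreme segregants (*ENO2*) and 2 given assimilated nitrogen. The count for R70 became 1 without the 2 extremes (*GCR2*), 2 with no minimum rho (*ENO1*, *GCR2*) and 3 given assimilated nitrogen. The shares of all features under these alternatives for the rates are not given here. Spearman's rho of *GPM3* with Rmax became 0.097 given assimilated nitrogen. In alternatives chosen after seeing the data, rho with R70 became -0.14 for *ENO1* and -0.23 for *GCR2* in the 9 segregants of highest R70. That split narrows the range of R70, which by itself can lower rho. The isoenzyme pairs called numbered 8 to 10 with 1 culture left out and 11 with normal scores, which added *GCR1* minus *GCR2* (exact p of 0.040 and adjusted p of 0.069 on the values as deposited, n = 5 a strain). That pair was also called without S288C culture 1, at an adjusted exact p of 0.019. Pairs not called turned sign in single leave-one-out fits, with *TDH1* minus *TDH3* from -0.13 to 0.084, *ENO1* minus *ENO2* from -0.13 to 0.024, *ADH1* minus *ADH5* from -0.094 to 0.039 and *ADH1* minus *SFA1* from -0.14 to 0.031. The median variance ratio ran from 4.79 to 5.74. The cause of these changes was not tested, except that the 40-array fit adds the spread of the segregants by construction.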
